A study of Mus musculus with 8 samples.

Results

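The long-chain fatty acid oxidation enzymes described here are Cpt1a, Cpt1b, Slc25a20, Cpt2, Acadvl, Acadl, Acadm, Hadha and Hadhb. They were taken by symbol from a raw-count table of 24419 genes, in which all 9 had a row, and 8 of the 9 were among the 13646 genes with enough reads for the edgeR test. Cpt1b was not. The set was proposed under the name of fatty acid oxidation and ketogenesis, but none of the 9 makes ketone bodies, and genes of ketone metabolism are given further on from separate lists. The series, on pancreatic cancer cachexia, sequenced RNA of fibroadipogenic progenitors, mesenchymal cells of muscle with the capacity to become fibroblasts or adipocytes. Male C57BL/6J mice gave the hindlimb muscles, from which viable nucleated cells were sorted that had SCA-1 on their surface and lacked CD31, CD45 and α7-integrin. Sham libraries (n = 2) came from mice that had surgery without tumour cells. Scrambled libraries (n = 3) came from mice whose pancreas was injected, in 50 µL, with KPCY cells, a mouse pancreatic cancer line, carrying a lentiviral scrambled sequence. Knockdown libraries (n = 3) came from mice injected with the same number of KPCY cells carrying a lentiviral inhibitor of miR-27a-3p. Both lines had been selected with puromycin at 2 µg/mL for 7 days. The inhibitor was in the implanted cells and not in the sorted progenitors, so these libraries hold no check of the knockdown, and each arm rests on a single transduced line. The labels call the libraries biological replicates and give no age, collection time, sorting day or batch.

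Fatty acids are burned in the mitochondrial matrix, which their CoA esters cannot enter directly. Carnitine palmitoyltransferase 1 on the outer membrane turns a long-chain acyl-CoA into an acylcarnitine, a step that malonyl-CoA inhibits. A translocase carries the acylcarnitine across the inner membrane and carnitine palmitoyltransferase 2 rebuilds the acyl-CoA inside. Each turn of the oxidation spiral then begins with an acyl-CoA dehydrogenase suited to the chain length, and the mitochondrial trifunctional protein completes the turn for long chains and releases acetyl-CoA. PPAR receptors, which are activated by fatty acids, are known to induce many of these genes in liver and muscle during fasting.

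The genomic positions are those of GENCODE M21 on GRCm38, the build called mm10, and all 9 genes are protein-coding. Cpt1a lies at chr19:3322334-3385733 on the plus strand, Cpt1b at chr15:89416405-89425863 on the minus strand, Slc25a20 at chr9:108662088-108684641 on the plus strand and Cpt2 at chr4:107903981-107923610 on the minus strand. The dehydrogenase genes are all on minus strands, Acadvl at chr11:70010183-70015411, Acadl at chr1:66830839-66863277 and Acadm at chr3:153922357-153944632. Hadha, at chr5:30118304-30155162 on the minus strand, and Hadhb, at chr5:30155248-30184593 on the plus strand, face away from each other with starts 86 bases apart. Exons of Acadvl overlap those of the antisense gene Dvl2 over 1151 bases, and 75 exonic bases of Hadha lie in Garem2. Cpt1b shares 2744 exonic bases with Gm44502, a gene of the same strand. The counting strand is not given in the sources used here, so reads of overlapping genes may have been split or shared.

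RefSeq promoter windows on GRCm38.p6 (250 bases before to 50 after a start) matched 8 of the 9 genes. The strip between the starts of Hadha and Hadhb is shown because it lies upstream of both subunit genes, on the plus strand at chr5:30155163-30155247. Acadl (chr1:66863310-66863459, minus strand) and Cpt2 (chr4:107923611-107923760, minus strand) are shown as the genes with the largest differences in opposite directions between scrambled and sham libraries. Acadvl (chr11:70015429-70015578, minus strand) is shown for contrast with Acadl, since both encode long-chain dehydrogenases. Each sequence runs 5′ to 3′ on the strand named, and capitals mark the GC box GGGCGG or its reverse complement CCGCCC, except in Acadvl, where they mark AGGTCA.
Hadha-Hadhb strip: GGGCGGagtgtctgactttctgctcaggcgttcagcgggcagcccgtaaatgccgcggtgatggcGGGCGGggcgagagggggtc
Acadl: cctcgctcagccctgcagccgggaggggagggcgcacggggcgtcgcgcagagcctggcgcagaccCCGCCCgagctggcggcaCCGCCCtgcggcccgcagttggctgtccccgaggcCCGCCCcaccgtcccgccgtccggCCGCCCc
Cpt2: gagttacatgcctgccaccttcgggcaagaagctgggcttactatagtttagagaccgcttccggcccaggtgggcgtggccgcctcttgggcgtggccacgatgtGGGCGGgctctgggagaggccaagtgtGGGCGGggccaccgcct
Acadvl: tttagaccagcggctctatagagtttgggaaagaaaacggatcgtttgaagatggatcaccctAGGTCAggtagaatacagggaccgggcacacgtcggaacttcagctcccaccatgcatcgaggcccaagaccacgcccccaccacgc

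The shared strip of Hadha and Hadhb held 2 GC boxes, the stretch of Acadl held 4 and that of Cpt2 held 2. Over the whole windows and both strands, GGGCGG was present in 6 of the 8 genes (Acadl, Cpt2, Hadha, Hadhb, Slc25a20 and Cpt1a) and in 35.7% of 32851 RefSeq windows. The windows of Hadha and Hadhb overlap, so their matches are partly the same letters. The hexamer AGGTCA, the core of many nuclear receptor sites, was present in Acadm, Acadvl and Cpt1a, 3 of 8, against 16.3% of all windows. A PPAR-type repeat of that hexamer with a spacer of 1 base (AGGTCANAGGTCA) was in 0 of 8 windows and 0.0396% of all, and its looser form AGGNCANAGGNCA in 0 of 8 and 0.381%. The ERR-type sequence TCAAGGTCA, which contains AGGTCA, was in 0 of 8 against 0.423%, and the E-box CACGTG in 0 of 8 against 7.15%. CCAAT was found in the window of Cpt1a alone, 1 of 8, against 37.4%. A match is only a description of these letters.

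Before the comparisons, the libraries themselves differed. The first principal component of log2 CPM (read counts scaled to a common library size) held 61.1% of the variance, with scrambled libraries 1 and 3 at 115 and 92.0, scrambled library 2 at -12.3 and the 5 other libraries between -47.7 and -32.3. Total counts ran from 15647436 to 28340450. The 11 progenitor markers, among them Pdgfra and Ly6a, summed to 43790 to 53370 normalised CPM in sham, 26370 to 45990 in scrambled and 46150 to 52740 in knockdown libraries. Most of each sum was Dcn, Col3a1 and Col1a1. These gave 11100, 22480 and 8575 of 53370 CPM in sham library 1, and 24980, 990 and 1174 of 32000 in scrambled library 1. Pdgfra stood at 1256 to 1588 CPM in every library. Col3a1, Cd34, Lum, Pi16, Dpp4 and Col15a1, 6 of the 11, were lower in scrambled than in sham libraries without overlap (20.8% of all genes tested). Dcn, 1 of the 11, was higher without overlap (20.2%). Cd34 stood at 213, 1179 and 241 CPM in scrambled libraries against 2156 or more in sham. Ly6a, the gene of the SCA-1 antigen used for sorting, stood at 451, 1136 and 436 CPM against 951 and 933. Muscle fibre, the tissue with the most fatty acid oxidation around these cells, left little RNA: its 17 markers summed to 55.7 to 105 CPM in sham, to 122, 115 and 346 in scrambled libraries 1, 2 and 3, and to 72.7 to 100.5 in knockdown. The 7 mature adipocyte markers summed to 0 to 0.614, to 10.5, 1.78 and 5.73, and to 0.565 to 1.40 CPM in the same order, with Lep at 0 reads in all libraries. Of the 4 brown adipocyte markers, which summed to 30.6 to 40.3, 8.56 to 53.1 and 34.5 to 36.1 CPM, Dio2 gave nearly all reads and Ucp1 had none. The 6 endothelial markers summed to 121 to 172 CPM in sham, to 427, 164 and 353 in scrambled and to 184 to 228 in knockdown libraries. Fabp4, which is also on the list of PPAR targets, gave 221, 75.2 and 215 CPM of the scrambled sums. Pecam1, the gene of the CD31 antigen sorted against, stood at 20.2 to 29.9, 37.7 to 73.0 and 35.0 to 49.0 CPM in the 3 groups, and the other 4 overlapped between scrambled and sham. The 6 macrophage markers summed to 18.6 to 23.2 CPM in sham, to 47.1, 23.3 and 26.3 in scrambled and to 17.4 to 43.5 in knockdown libraries. Cd68, Adgre1, Cd14 and C1qa exceeded both sham values in every scrambled library (4 of 6; 20.2% of all genes). Lyz2 and Csf1r overlapped, and the log2 difference of Csf1r was negative (-0.42). The 4 pericyte markers summed to 115 to 146, 60.2 to 151 and 130 to 158 CPM. Without overlap, Rgs5 and Abcc9 were higher (2 of 4; 20.2% of all genes) and Cspg4 lower (1 of 4; 20.8%) in scrambled than in sham libraries. Markers of neutrophils, muscle stem cells, tenocytes and epithelial tumour cells each summed to under 25 CPM in every library. The epithelial sum was 15.9 CPM in scrambled library 1 and 1.07 to 5.02 in the others. Itga7, the gene of the α7-integrin sorted against, stood at 2.78 and 4.02 CPM in sham libraries. In scrambled libraries it stood at 5.955, 8.41 and 11.5, above sham without overlap (20.2% of all genes), and in knockdown at 4.003 to 7.17. Ptprc, the gene of CD45, overlapped between all groups, at 0.0558 to 2.515 CPM. The part of these other cells in any difference described here was not tested, and in bulk RNA fewer cells of a type and less RNA per cell cannot be told apart.

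All steps of the pathway were transcribed in these progenitors. Together the 9 genes took between 0.0370% of reads (scrambled library 1) and 0.0527% (knockdown library 3), and their normalised CPM summed to 411 to 512. Levels of different genes were compared as CPM per kilobase of the longest principal transcript, averaged over the 8 libraries. Acadvl (38.9, range 28.3 to 46.2) and Acadl (38.1, 28.4 to 62.2) stood highest and overlapped. Hadha (26.0, 20.5 to 30.7), Acadm (23.2, 18.3 to 25.7) and Cpt1a (23.1, 14.6 to 33.5) followed, and neighbours in that order overlapped. Hadhb (13.4, 12.0 to 15.5) overlapped Cpt1a above it but lay above Slc25a20 (9.28, 7.32 to 10.6) in every library. Slc25a20 and Cpt2 (8.45, 5.12 to 11.2) overlapped. Cpt1b (0.118, 0.0177 to 0.365) was far below the other 8. The transcript length was chosen after levels per kilobase of all annotated exons had been seen, and those gave the order Acadl, Acadvl, Cpt1a, Acadm, Hadha, Cpt2, Hadhb, Slc25a20 and Cpt1b.

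**Figure D1:**
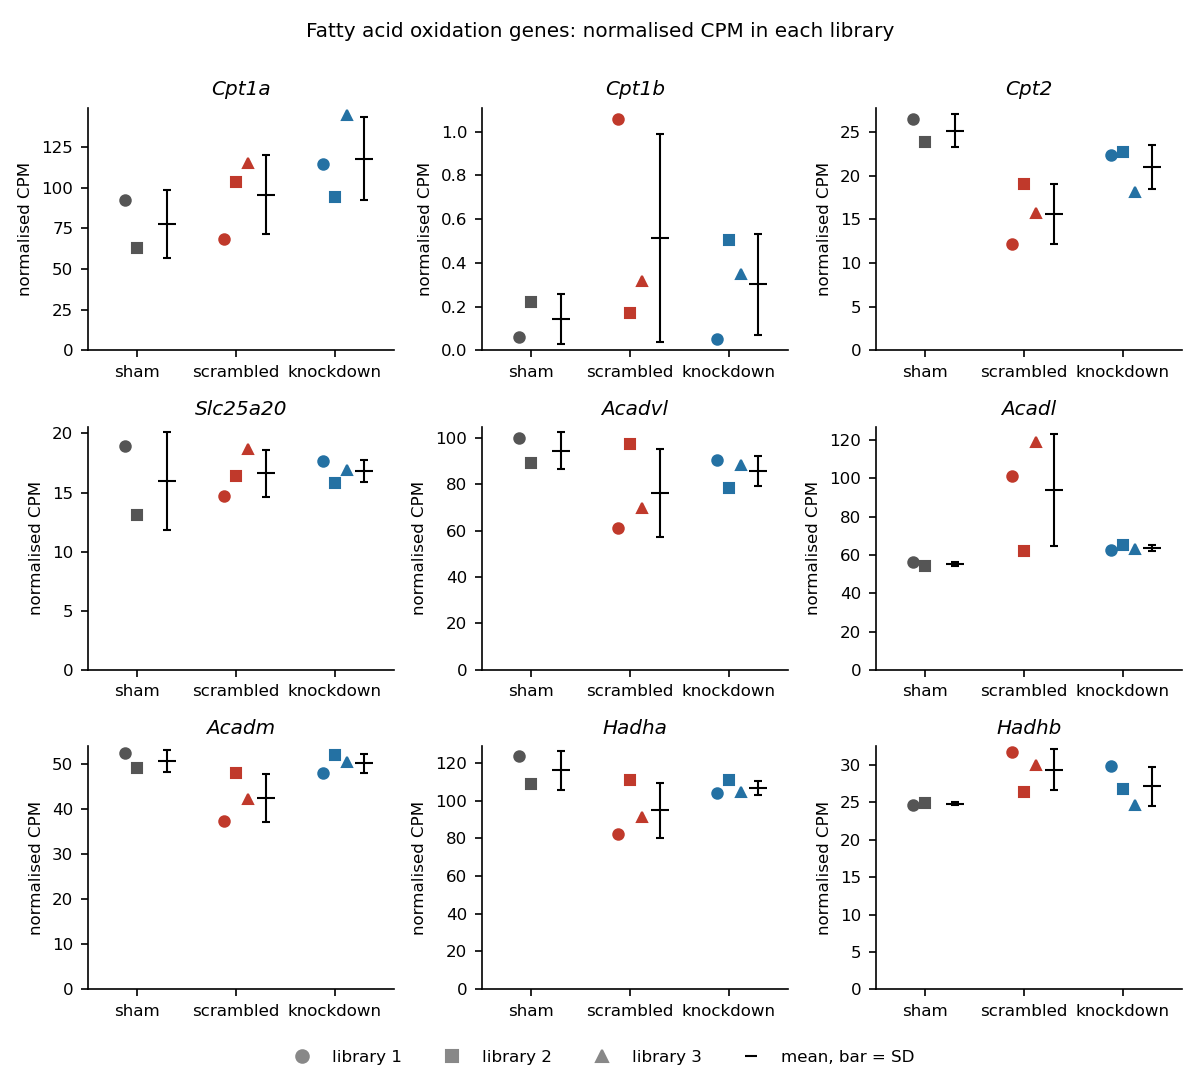
Normalised CPM (y axes, each from 0) of the 9 genes in each of the 8 libraries, by group on the x axes. Symbols give the library number and bars the mean and SD of a group. Scrambled library 2 lies near the sham and knockdown libraries for Acadl, Acadvl and Hadha, away from scrambled libraries 1 and 3, and Cpt1b stays under 1.1 CPM everywhere.

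Cpt1a encodes the liver-type form of carnitine palmitoyltransferase 1, the malonyl-CoA sensitive entry step. Its level was 92.5 and 63.1 normalised CPM in the sham libraries, 68.5, 103 and 115 in the scrambled ones and 115, 94.15 and 145 in the knockdown ones, in the order of their replicate numbers, as for all genes. Scrambled and sham libraries overlapped, while every knockdown library lay above both sham libraries, the lowest at 94.15 against 92.5. The log2 difference was 0.30 ± 0.28 (SE; edgeR quasi-likelihood test, adjusted p = 0.476) from sham to scrambled and 0.30 ± 0.25 (0.405) from scrambled to knockdown. From sham to knockdown it was 0.60 ± 0.29 (adjusted p = 1, unadjusted 0.0643), with a 95% interval from -0.04 to 1.25. Cpt1a was thus not called in any comparison, and the interval still allows a 2.37-fold higher level in knockdown than in sham libraries.

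Cpt1b encodes the muscle-type form, which is abundant in muscle fibres and heart. It had 1 and 4 reads in the sham, 27, 4 and 5 in the scrambled and 1, 9 and 8 in the knockdown libraries. These are 0.0633 and 0.223, 1.06, 0.169 and 0.315, and 0.0513, 0.502 and 0.350 CPM, far below Cpt1a in every library. Such counts were too low to pass the edgeR filter, and no fold change is given. Cpt1c, a CPT1 gene that is not among the 9, was not scarce. It stood at 46.9 and 53.6 CPM in sham, 20.2, 48.9 and 28.8 in scrambled and 42.1, 43.1 and 43.1 in knockdown libraries. DESeq2, which did give Cpt1b an adjusted p for scrambled against sham, called 0 of the 9 genes. Scrambled library 1 stood highest for Cpt1b and for the sum of the mature adipocyte markers, whereas the muscle fibre sum was highest in scrambled library 3. Single markers did not all follow their sums. Pck1 gave 8.11 of the 10.5 CPM of adipocyte markers in scrambled library 1, where Adig and Cidea were also highest. Adipoq and Cidec were highest in scrambled library 3 and Plin1 in scrambled library 2. Of the muscle fibre markers, Pygm was highest in scrambled library 1 and Cox7a1 in sham library 1. The source of the Cpt1b reads was not tested.

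Slc25a20 encodes the carnitine-acylcarnitine translocase. Levels of 18.9 and 13.1 CPM in sham, 14.7, 16.4 and 18.7 in scrambled and 17.7, 15.85 and 16.9 in knockdown libraries placed both tumour groups inside the range of the sham pair. Its log2 difference was 0.06 ± 0.23 (edgeR, adjusted p = 0.882) for scrambled against sham, 0.02 ± 0.20 (0.946) for knockdown against scrambled and 0.08 ± 0.23 (1) for knockdown against sham. Its 95% interval for scrambled against sham ran from -0.47 to 0.58.

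Cpt2 encodes carnitine palmitoyltransferase 2, which reforms the acyl-CoA on the inner membrane. It stood at 26.5 and 23.8 CPM in sham, 12.15, 19.1 and 15.7 in scrambled, and 22.3, 22.7 and 18.15 in knockdown libraries. Every scrambled and every knockdown library lay below both sham libraries, and the scrambled and knockdown ranges overlapped. The log2 difference was -0.69 ± 0.23 for scrambled against sham (edgeR, adjusted p = 0.114, unadjusted 0.0167, 95% interval -1.22 to -0.16). It was 0.43 ± 0.21 (adjusted p = 0.190) for knockdown against scrambled and -0.26 ± 0.23 (1) for knockdown against sham. None of these was called.

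Among the acyl-CoA dehydrogenases, Acadvl encodes the very long-chain enzyme of the inner membrane. Its values were 100.2 and 89.05 CPM in sham, 61.2, 97.6 and 69.65 in scrambled and 90.3, 78.4 and 88.5 in knockdown libraries. Scrambled libraries 1 and 3 were the lowest 2 of the 8, while scrambled library 2 lay between the sham libraries. The log2 difference was -0.31 ± 0.21 (edgeR, adjusted p = 0.330) for scrambled against sham, 0.17 ± 0.19 (0.538) for knockdown against scrambled and -0.14 ± 0.21 (1) for knockdown against sham. Dvl2, whose exons overlap those of Acadvl on the other strand, stood at 25.6 to 38.0 CPM, with log2 differences of -0.06, -0.05 and -0.11 in the same comparisons.

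Acadl, the gene of the long-chain dehydrogenase, was highest in scrambled libraries 1 and 3, where Acadvl was lowest. It stood at 56.05 and 54.5 CPM in sham, 101, 61.9 and 119 in scrambled, and 62.4, 65.3 and 63.1 in knockdown libraries. Scrambled libraries 1 and 3 were far above all others, and scrambled library 2, at 61.9, was below the 3 knockdown libraries. The 3 knockdown libraries lay within 62.4 to 65.3, just above the sham pair. Acadl had a log2 difference of 0.77 ± 0.26 (1.70-fold) for scrambled against sham, with an edgeR adjusted p of 0.108, an unadjusted p of 0.0148 and a 95% interval from 0.19 to 1.34. For knockdown against scrambled it was -0.56 ± 0.22 (adjusted p = 0.127, unadjusted 0.0321), and for knockdown against sham 0.20 ± 0.25 (1). Acadl therefore had the smallest p of the 8 genes in both comparisons with scrambled libraries, and it did not pass the threshold of 0.05 after adjustment in either.

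Acadm encodes the medium-chain dehydrogenase, which takes over once the chain has been shortened. Its levels were 52.5 and 49.1 CPM in sham, 37.4, 48.01 and 42.3 in scrambled and 48.04, 52.1 and 50.6 in knockdown libraries. The scrambled libraries were below both other groups, although scrambled library 2 (48.01) and knockdown library 1 (48.04) were almost level. For Acadm the log2 difference was -0.25 ± 0.17 (edgeR, adjusted p = 0.315) for scrambled against sham, 0.24 ± 0.15 (0.280) for knockdown against scrambled and -0.02 ± 0.17 (1) for knockdown against sham.

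Hadha encodes the α subunit of the trifunctional protein, with the hydratase and hydroxyacyl-CoA dehydrogenase activities. It stood at 123.4 and 109 CPM in sham, 82.4, 111 and 91.4 in scrambled, and 104, 111 and 105 in knockdown libraries. As for Acadvl, scrambled libraries 1 and 3 were the lowest 2 and scrambled library 2 was among the rest. Scrambled against sham, the log2 difference of Hadha was -0.29 ± 0.17 (edgeR, adjusted p = 0.274). It was 0.17 ± 0.16 (0.456) for knockdown against scrambled and -0.12 ± 0.17 (1) for knockdown against sham.

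Hadhb encodes the β subunit, which carries the thiolase that releases acetyl-CoA. Although its start lies 86 bases from that of Hadha, its highest 2 libraries were scrambled 1 and 3, where Hadha was lowest. The values were 24.7 and 24.9 CPM in sham, 31.7, 26.4 and 30.04 in scrambled and 29.9, 26.85 and 24.7 in knockdown libraries. Scrambled libraries lay above both sham libraries and overlapped the knockdown libraries. Its log2 difference was 0.24 ± 0.18 (edgeR, adjusted p = 0.372), -0.11 ± 0.16 (0.625) and 0.13 ± 0.18 (1) in the same 3 comparisons.

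The comparison of scrambled with sham libraries asks how the progenitors of tumour-bearing mice differ. EdgeR called 0 of the 8 genes higher and 0 lower, where it called 1.10% of all genes tested higher and 0.476% lower. DESeq2 (9.09% of all genes with an adjusted p higher, 5.16% lower) and limma-voom (0.857% and 0.528%) also called 0 of them in each direction. At an unadjusted p under 0.05 there were 2 of 8 (25%), Acadl and Cpt2, against 29.2% of all genes. Groups did not overlap for 2 genes that were higher (Acadl and Hadhb; 20.2% of all genes) and for 2 that were lower (Cpt2 and Acadm; 20.8%), which is close to the share over all genes. The median log2 difference of the 8 was -0.10, against 0.00 for all genes, with 4 of 8 above 0. Their 95% intervals lay within -1.22 to 1.34.

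The comparison of knockdown with scrambled libraries asks how the inhibitor in the tumour cells bears on the progenitors. EdgeR called 0 of the 8 genes higher and 0 lower, where it called 0.00733% of all genes higher and 0.0440% lower. By DESeq2 it was 0 of 8 (5.62% of all genes higher, 10.7% lower), and by limma-voom 0 of 8 (0% and 0.0366%). Only Acadl had an unadjusted edgeR p under 0.05, 1 of 8 (12.5%) against 32.4% of all genes. Acadm was the 1 gene above scrambled libraries without overlap (17.5% of all genes), and 0 were below (16.7%). The median was 0.17, against 0.01 for all genes, with 6 of 8 above 0, and the intervals lay within -1.07 to 0.91. This comparison and that of scrambled with sham share the scrambled libraries and are not independent.

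Between knockdown and sham libraries edgeR called 0 of 8 genes higher and 0 lower (0.00733% and 0% of all genes), DESeq2 0 (0.199% and 0.00798%) and limma-voom 0 (0.00733% and 0%), and 0 of 8 had an unadjusted edgeR p under 0.05, against 2.37% of all genes. Groups did not overlap for Acadl and Cpt1a, which were higher (2 of 8; 13.8% of all genes), and for Cpt2, which was lower (1 of 8; 13.5%). The median log2 difference was 0.03. The 95% interval was widest for Cpt1a (-0.04 to 1.25) and narrowest for Acadm (-0.40 to 0.36), and that of Cpt2 reached lowest (-0.79 to 0.27).

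**Figure D2:**
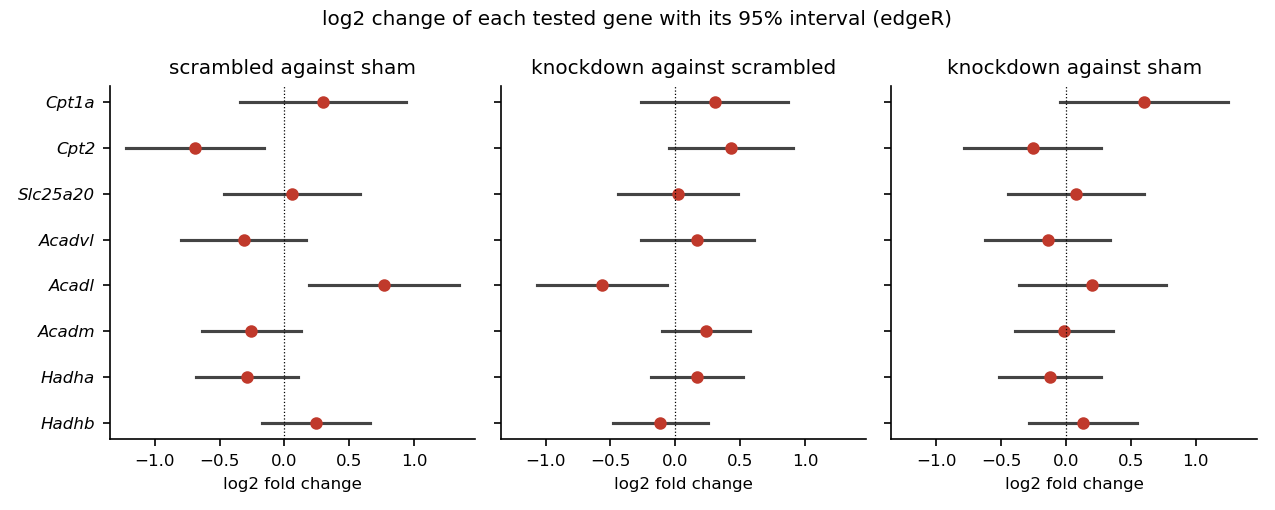
Log2 fold change (x axes) of the 8 tested genes with the 95% interval from the edgeR fit, in 3 comparisons. The interval excludes 0 for Cpt2 and Acadl in scrambled against sham and for Acadl in knockdown against scrambled, before adjustment over the 13646 genes tested, and for no gene in knockdown against sham.

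The scrambled group was uneven for these genes, as for the transcriptome. Scrambled library 2 lay inside the range of the 5 sham and knockdown libraries for 7 of the 8 genes, all but Acadm. Scrambled libraries 1 and 3 did so for 2 of 8 each, Cpt1a and Slc25a20 in both cases. When scrambled library 2 was left out, which leaves 2 scrambled libraries, edgeR called 1 gene higher than in sham, Acadl (log2 1.00 ± 0.14, adjusted p = 0.000116). It called 3 lower, namely Cpt2 (-0.86 ± 0.21, 0.00458), Acadvl (-0.53 ± 0.14, 0.00889) and Hadha (-0.41 ± 0.13, 0.0223). Without that library, however, 25.4% of all 13547 genes tested were called higher and 25.6% lower, so calls for 4 of 8 genes stand near the share over all genes. For knockdown against scrambled the same step called Acadl lower (-0.80 ± 0.12, adjusted p = 0.000205), where 26.6% of all genes were. It called Cpt2 (0.60 ± 0.19, 0.0190), Acadvl (0.39 ± 0.13, 0.0255) and Acadm (0.33 ± 0.13, 0.0489) higher, 3 of 8, where 27.3% were. Cpt1a, Slc25a20 and Hadhb were not called in either comparison with or without that library. Over all alternatives run, the edgeR, DESeq2 and limma-voom adjusted p of Acadl for scrambled against sham ran from 0.000116 to 0.424, and that of Cpt2 from 0.00458 to 0.441. Leaving out any other library called none of the 8.

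**Figure D3:**
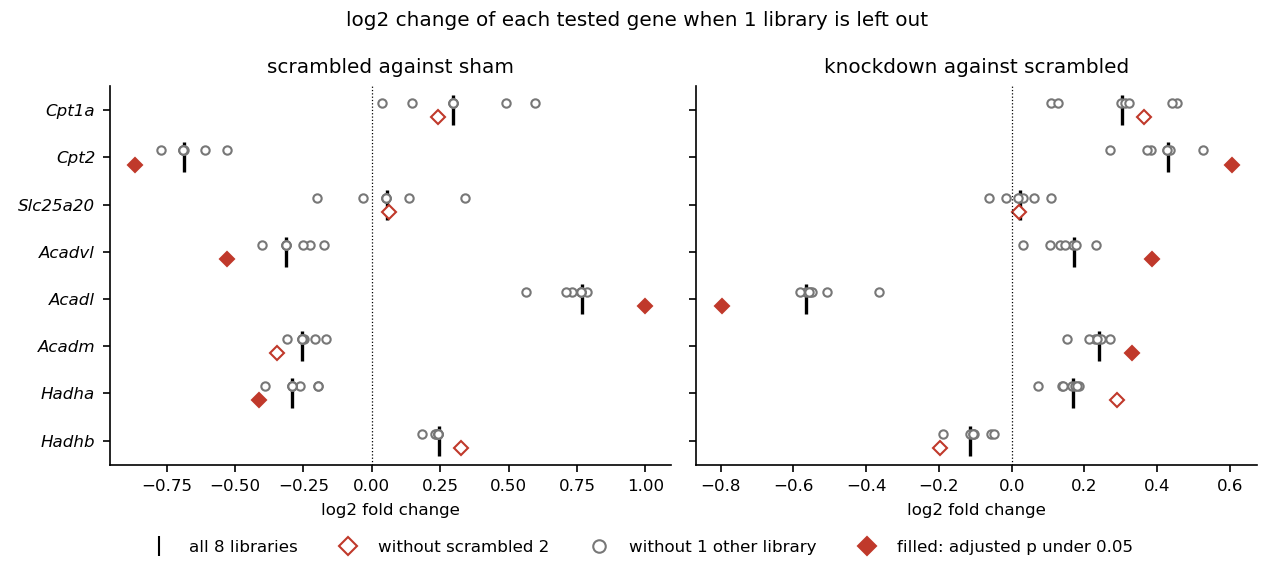
Log2 fold change (x axes) of the 8 tested genes with all 8 libraries (vertical ticks), without scrambled library 2 (diamonds) and without each other library in turn (circles), for 2 comparisons. Filled diamonds have an adjusted p under 0.05 and are seen only without scrambled library 2, for Cpt2, Acadvl, Acadl and Hadha on the left and for Cpt2, Acadvl, Acadl and Acadm on the right.

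Ratios between partner genes do not depend on library size. They were chosen after the values above had been seen, are given as log2 ratios of read counts, and carry no test. Hadhb over Hadha, the subunits of a single complex, was -2.32 and -2.12 in sham, -1.38, -2.07 and -1.61 in scrambled and -1.80, -2.04 and -2.09 in knockdown libraries. The ratio of the β to the α subunit transcript was thus highest in scrambled libraries 1 and 3. Acadl over Acadm, the long-chain against the medium-chain dehydrogenase, was 0.09 and 0.15, then 1.44, 0.37 and 1.49, and then 0.38, 0.33 and 0.32. On a linear scale Acadl had 1.07 and 1.11 times the reads of Acadm in sham, 2.71 and 2.81 times in scrambled libraries 1 and 3, and 1.25 to 1.30 times in scrambled library 2 and the knockdown libraries. Acadl over Acadvl was below 0 in the sham, knockdown and second scrambled libraries (-0.84 to -0.26) and above 0 in scrambled libraries 1 and 3 (0.73 and 0.77). Cpt1a over Cpt2, the outer against the inner carnitine palmitoyltransferase, was 1.80 and 1.41 in sham, 2.495, 2.44 and 2.88 in scrambled and 2.36, 2.06 and 3.00 in knockdown libraries. All 6 libraries of tumour-bearing mice, scrambled library 2 included, lay above both sham libraries on this ratio.

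**Figure D4:**
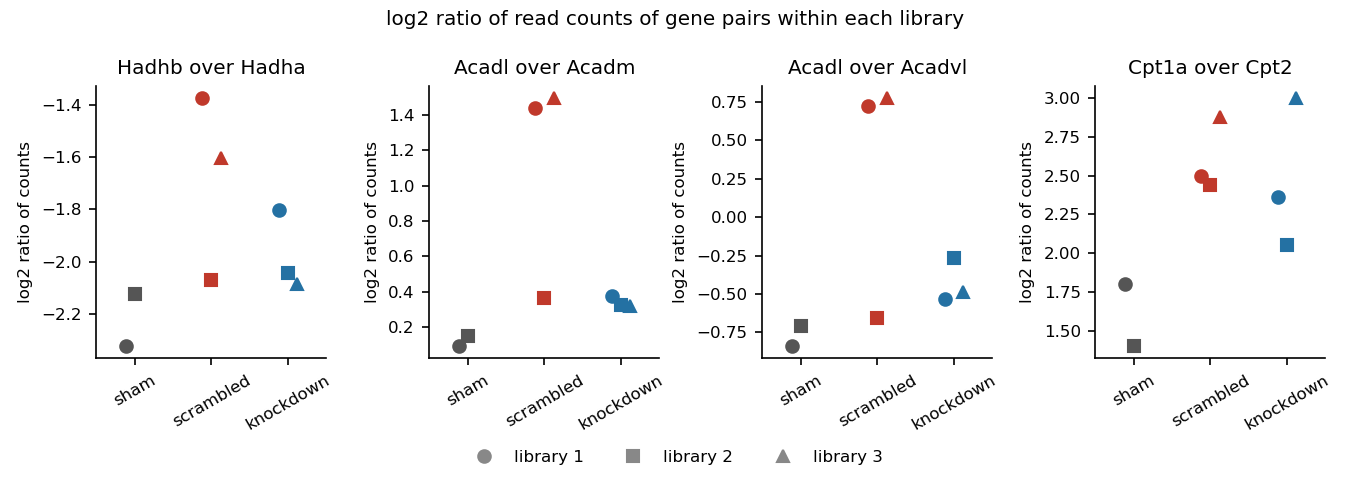
Log2 ratio of read counts (y axes) of 4 gene pairs in each library, by group. Scrambled libraries 1 and 3 are the highest 2 on the first 3 ratios. The 2 Acadl ratios set them well apart, while on Hadhb over Hadha scrambled library 3 (-1.61) is close to knockdown library 1 (-1.80). Cpt1a over Cpt2 is higher in all 6 libraries of tumour-bearing mice (2.06 to 3.00) than in sham (1.41 and 1.80).

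The genes around these enzymes were taken from 11 lists of activation, malonyl-CoA control, other oxidation steps, ketone metabolism, regulators, known targets, lipolysis and the citric acid cycle, with 91 genes tested. For scrambled against sham, edgeR called 3 of the 91 higher (1.10% of all genes) and 1 lower (0.476%), with 30 at an unadjusted p under 0.05 (29.2% of all genes). DESeq2 called 16 higher and 3 lower (9.09% and 5.16% of all genes), and limma-voom 2 and 1 (0.857% and 0.528%). The lists closest to the oxidation spiral held no edgeR call. Activation and carnitine (11 tested), malonyl-CoA control (5), other mitochondrial oxidation enzymes (14), electron transfer (3) and peroxisomal oxidation (12) had 0 called by edgeR and by limma-voom, with 2, 1, 5, 0 and 3 genes at an unadjusted p under 0.05 (18.2%, 20%, 35.7%, 0% and 25% of them, against 29.2% of all genes). DESeq2 called 1 gene higher in each of 2 of them, Acsl1 and Acacb. Their median log2 differences were -0.32, 0.57, -0.18, -0.11 and -0.23. The 17 citric acid cycle genes, a mitochondrial reference, also had 0 called by edgeR (2 at an unadjusted p under 0.05, and Ogdh lower by DESeq2) and a median of -0.15.

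Single genes of these lists, picked for print from the genes with the smallest p after their values had been seen, again set scrambled libraries 1 and 3 apart. Acacb, the acetyl-CoA carboxylase at the outer mitochondrial membrane whose malonyl-CoA inhibits CPT1, stood at 8.48 and 14.4 CPM in sham, 91.3, 20.96 and 144 in scrambled and 12.9, 10.6 and 12.2 in knockdown libraries. Its log2 difference was 2.89 ± 0.69 for scrambled against sham (edgeR, adjusted p = 0.0646, from 3.38e-06 to 0.416 over its alternatives). Echs1, the short-chain enoyl-CoA hydratase that follows the dehydrogenases, was at 34.8 and 51.8, then 109, 50.04 and 80.0, and then 35.2, 34.5 and 36.5 CPM (0.88 ± 0.31; 0.121). Both genes were high where Acadl was high, in scrambled libraries 1 and 3, and scrambled library 2 stood near the other groups. Of the 14 other mitochondrial oxidation enzymes, 4 had a log2 difference above 0 for scrambled against sham, against 50.1% of all genes. Hadh, Decr1, Acadsb and Acad11 lay below sham without overlap, 4 of 14 (20.8% of all genes), and Acaa2 lay above it, 1 of 14 (20.2%). Acad11, an acyl-CoA dehydrogenase, was at 17.8 and 12.7 CPM in sham, 5.96, 11.5 and 7.05 in scrambled and 15.2, 16.4 and 13.2 in knockdown libraries (-0.89 ± 0.32; 0.121).

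Of the genes of ketone metabolism, the ketogenic list had 2 tested, Acat1 and Bdh1, with 0 called by edgeR and by limma-voom for scrambled against sham. Both were at an unadjusted p under 0.05 in edgeR, as were 29.2% of all genes. DESeq2 called Bdh1 higher, as it did 9.09% of all genes. Bdh1, whose enzyme interconverts the main ketone bodies, had few reads, 4 and 2 in sham, 127, 15 and 26 in scrambled and 5, 7 and 0 in knockdown libraries. Its log2 difference for scrambled against sham was 3.76 ± 1.18 (edgeR, adjusted p = 0.0898). Acat1, the mitochondrial thiolase, stood at 112 and 116 CPM in sham, 71.5, 96.4 and 70.8 in scrambled and 104, 107 and 109 in knockdown libraries, with a log2 difference of -0.52 ± 0.18 (edgeR, adjusted p = 0.114) for scrambled against sham. Oxct1, which returns ketone bodies to CoA esters, stood at 103 and 138, then 42.7, 80.05 and 43.6, and then 103, 99.5 and 94.3 CPM (-1.12 ± 0.28; 0.0700). Slc16a1, a monocarboxylate transporter, stood at 27.4 and 17.0, then 58.9, 35.5 and 50.3, and then 27.9, 21.15 and 25.3 CPM (1.12 ± 0.29; 0.0730). Of the 3 ketone use genes tested edgeR and limma-voom called 0, with 2 at an unadjusted p under 0.05 by each, and DESeq2 called Slc16a1 higher and Oxct1 lower. In knockdown against scrambled, edgeR called 0 of the 91 genes, with 30 at an unadjusted p under 0.05 (32.4% of all genes), limma-voom 0 and DESeq2 5 higher and 17 lower (5.62% and 10.7%). In knockdown against sham it called 0, with 3 at an unadjusted p under 0.05 (2.37% of all genes), limma-voom 0 and DESeq2 1 higher, Angptl4 (0.199%).

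Of 9 known PPAR or fasting targets tested outside the spiral, edgeR called Pdk4, Angptl4 and Cd36 higher with scrambled tumours than after sham surgery. These were 3 of 9 (1.10% of all genes), and the list median was 2.11. At an unadjusted edgeR p under 0.05 there were 6 of 9 (66.7%, against 29.2% of all genes). For the same comparison limma-voom had 2 of 9 higher (0.857% of all genes). DESeq2 had 6 higher of the 10 genes it tested (9.09% of all genes). Pdk4, the kinase that shuts off pyruvate dehydrogenase when fat is burned, stood at 13.6 and 15.7 CPM in sham, 520, 48.0 and 642.5 in scrambled and 27.3, 23.4 and 28.7 in knockdown libraries (log2 4.78 ± 0.95, adjusted p = 0.0482). Angptl4, an inhibitor of lipoprotein lipase, stood at 25.2 and 7.70, then 254.5, 141 and 469, and then 64.7, 82.15 and 97.6 CPM (4.14 ± 0.65, 0.0263). Cd36, the fatty acid transporter, stood at 23.7 and 21.4, then 102, 63.2 and 126, and then 58.5, 40.9 and 64.4 CPM (2.11 ± 0.32, 0.0252). Cpt1a, known as a PPAR target too, stood at 0.30 ± 0.28 beside them, and whether its difference departs from theirs was not tested. Mgll, the monoglyceride lipase, was the 1 gene that edgeR called lower (of 5 lipolysis genes tested; 0.476% of all genes). It stood at 97.0 and 78.1, then 31.2, 51.05 and 41.8, and then 74.9, 76.0 and 79.5 CPM (-1.08 ± 0.22, 0.0481). Pnpla2, Lipe and G0s2 of that list went the other way, 3 of 5 above sham without overlap (20.2% of all genes). DESeq2 called these 3 higher, while edgeR and limma-voom did not. The median of the lipolysis list was 0.904. The calls of Pdk4, Angptl4, Cd36 and Mgll depended on the fit. All 4 held with RLE scaling, without a filter, with DESeq2 and without scrambled library 2. All 4 were lost in a fit of the 2 groups alone (adjusted p from 0.165 for Cd36 to 0.235 for Mgll) and without any single library other than scrambled 2 (from 0.0542 for Angptl4 to 0.400 for Pdk4 and Mgll). With the replicate block those of Pdk4 (0.143), Angptl4 (0.0625) and Mgll (0.139) were lost, and with limma-voom that of Pdk4 (0.0878). Among 10 regulators tested edgeR and limma-voom called 0, with 3 at an unadjusted p under 0.05 (30%, against 29.2% of all genes), and DESeq2 called Klf15, Pparg and Rxra higher (9.09% of all genes). Of the nuclear receptors on that list, picked after their values were seen, Rxra stood at 91.0 to 223 CPM over the 8 libraries, Ppard at 29.6 to 39.5, Esrra at 16.1 to 24.0, Ppara at 3.499 to 9.87 and Pparg at 2.28 to 9.57, and the coactivator gene Ppargc1a at 0.253 to 3.34.

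**Figure D5:**
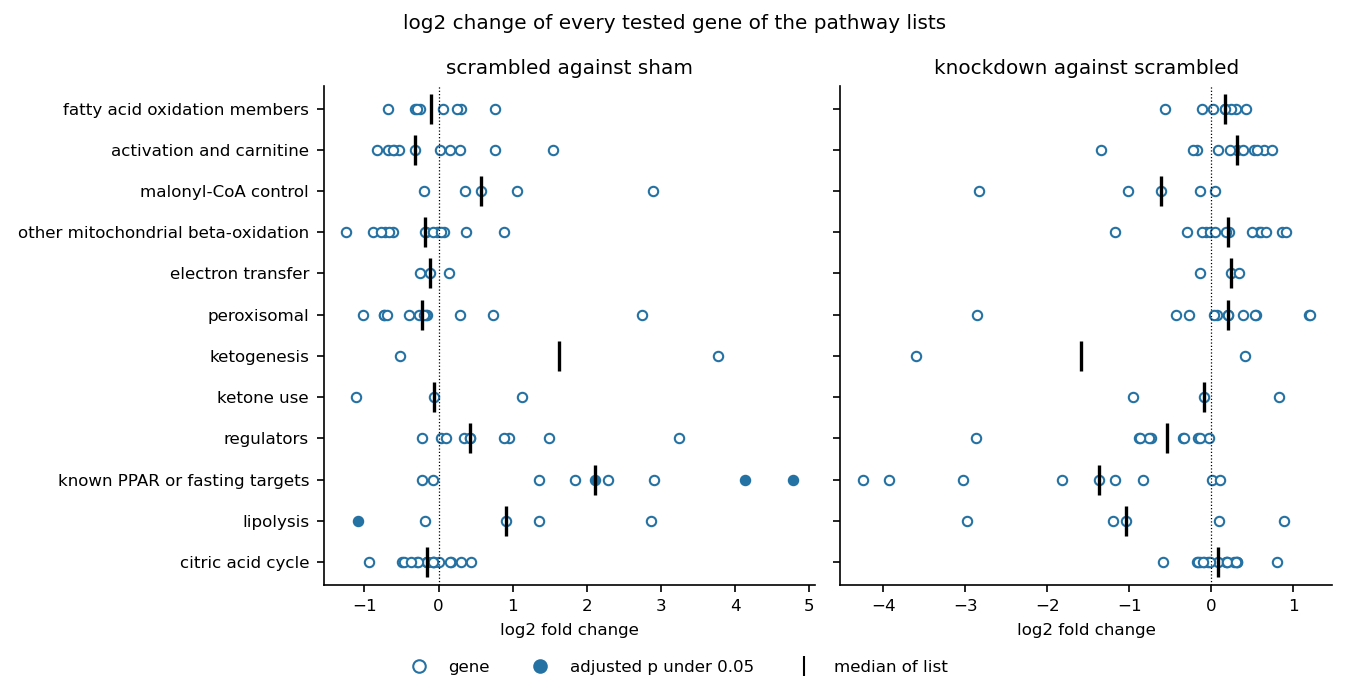
Log2 fold change (x axes) of every tested gene of the 9 enzymes and the 11 pathway lists, with the median of each list as a vertical tick, in 2 comparisons. Filled points have an edgeR adjusted p under 0.05: Pdk4, Angptl4, Cd36 and Mgll on the left and none on the right. The enzymes of the top row lie within -0.69 to 0.77 and -0.56 to 0.43.

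The genes whose log2 CPM over the 8 libraries was most like the mean standardised profile of the 8 enzymes were sought among 8854 genes with a mean of at least 10 CPM. They were Gpr107 (Pearson r = 0.95), Chmp2a (0.94), Ccdc47 (0.94), Isy1 (0.94) and Ints12 (0.94), a description over 8 libraries that share depth and group. Gpr107, for example, stood at 60.9 and 47.15 CPM in sham, 37.0, 54.4 and 54.0 in scrambled and 54.1, 57.5 and 56.2 in knockdown libraries, lowest in scrambled library 1, as was the summed level of the enzymes. The mean profile blends genes that went opposite ways: across the 28 gene pairs r ran from -0.87 to 0.94, and 19 pairs were positive.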

How the data were processed

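Raw counts, whole reads per gene symbol for 8 libraries, were deposited by the authors. Per the submitters' processing notes, bcl2fastq 2.20, STAR, Bowtie, R 4.2.1 and DESeq2 1.36.0 were used with the mm10 build, in roles that are not stated. The sources used here do not give the counter, its annotation or its strand setting. Per the labels' protocols, RNA of integrity 7 or more was made into stranded mRNA libraries and read as pairs of 59 bases. Counts were tested here in R 4.3.3 with edgeR 4.0.16. Its filterByExpr step required both 10 reads, scaled to library size, in enough libraries and 15 reads in all. TMM and a robust quasi-likelihood fit of 3 group means over all 8 libraries followed. Tests were two-sided, with Benjamini-Hochberg adjustment over 13646 genes and a threshold of 0.05. The script was tested on simulated data that held no outlying library. That test does not bear on calls that turn on scrambled library 2. Normalised CPM is the count over the TMM-scaled library size, times 1e6, SE is the log2 change over the root of F, and principal components and likeness used a prior count of 2. DESeq2 1.42.0, limma-voom (limma 3.58.1), RLE scaling, no filter, the 2 groups alone, the replicate block and leaving out each library were alternatives. The genes, lists and tests were chosen with earlier results of these data known. Genes of the other lists that could be printed were those called in any comparison and the 2 with the smallest p of each list and comparison, and a subset of these is printed. Markers, and Cpt1c, Pnpla2, Ppara, Ppard, Ppargc1a, Hadh, Decr1, Acadsb and Acaa2, are named outside that rule after their values were seen. Some genes of these lists are not reported here and enter none of the lists' counts or medians. P-values rest on the spread between libraries, which the labels call biological replicates, and counting error covers reads, not molecules.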

Additional observations from a re-analysis of the deposited data

How the results depend on the processing

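For the 8 tested enzymes, scaling, filter, tool, the 2 groups alone and the replicate block kept the direction and the side of the threshold of each log2 change in the 3 comparisons, and scaling moved the median of all genes by less than 0.02. Leaving out 1 library at a time moved their calls for scrambled against sham from 0 to 1 higher and 0 to 3 lower, and for knockdown against scrambled from 0 to 3 higher and 0 to 1 lower, in each case through scrambled library 2 alone. The sign of Slc25a20 turned between -0.20 and 0.34 (scrambled against sham), -0.062 and 0.11 (knockdown against scrambled) and -0.17 and 0.36 (knockdown against sham), and that of Acadm between -0.065 and 0.030 (knockdown against sham). Calls over all genes depended strongly on the fit, and the cause was not tested. For scrambled against sham 150 genes were called higher and 65 lower, against 1259 and 714 with DESeq2, 4 and 0 in the 2 groups alone, 14 and 2 with the replicate block, and 0 to 3441 and 0 to 3467 when leaving out 1 library. For knockdown against scrambled the 1 higher and 6 lower became 759 and 1447 with DESeq2, 0 higher with limma-voom, 10 lower without a filter, 0 and 0 in the 2 groups alone and with the replicate block, and 0 to 3705 and 0 to 3608 when leaving out 1 library. For knockdown against sham the 1 higher and 0 lower became 25 and 1 with DESeq2, 2 higher without a filter, 73 and 28 in the 2 groups alone, 0 higher with the replicate block, and 0 to 23 and 0 to 9 when leaving out 1 library. Replicate numbers are not stated to pair the mice. Deviations from the group means correlated from -0.06 to 0.17 for same-numbered libraries and from -0.15 to 0.07 for differently numbered ones. With 2 sham libraries these deviations mirror each other, so the correlations cannot settle whether mice were paired. Over the alternatives of the other named genes for scrambled against sham, 36 values lost their call and 35 gained one, with 0 changes of sign. Cpt1b, with at most 27 reads in a library, did not pass the edgeR filter.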
